A study of Mus musculus with 68 samples.

Results

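The genes described here build, fold and export secreted protein, with weight on the steps that are particular to collagen. They were taken from a named list of 40 mouse genes, and all 40 were among the 23420 gene symbols of the count table. By role the list holds 7 collagen hydroxylase genes, 4 genes of collagen chaperones and prolyl isomerase complexes, 12 general chaperones and folding enzymes of the endoplasmic reticulum (ER), 6 genes of the unfolded protein response, 2 genes of the translocon, 7 genes of the COPII coat and its cargo receptor, and 2 KDEL receptor genes. The list names genes, not values. Of the 40, 37 had enough counts to be tested between zones. Creb3l1, Ern1 and Sdf2l1 did not and are given as levels only.

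Growth plate cartilage lengthens the long bones, and its chondrocytes pass through resting, proliferative and hypertrophic stages that lie in zones along the bone. Cells of each zone were captured by laser microdissection from stained frozen sections and turned into SMART-seq2 libraries from poly(A) RNA. The mice were of mixed background, the labels name no allele or treatment, and they were aged postnatal day 2 (P2), 3 (P3) or 28 (P28). Sections were fixed in ethanol (P2, 9 resting, 8 proliferative and 8 hypertrophic libraries; P28, 8, 9 and 9; P3, 1 of each zone) or, at P28 alone, in xylene (4, 5 and 5). The 68 libraries held 748 to 3347722 counts. Of the 51 ethanol libraries of P2 and P28, the 26 with at least 100000 counts were summed by animal and zone, which gave 21 sums from 9 animals: 4 animals for each zone at P2 and 3 for each zone at P28. Animals are lettered within an age. P2 animal D and P28 animal B carry labels in the plural and may each be a pool. Levels are CPM (counts scaled to a common library total) adjusted by TMM, a normalisation for RNA composition. For zone differences the p-values rest on how zones vary from animal to animal once each animal's own level is removed, over both ages together. P2 animals C, E and F each gave 1 sum, so removing the animal's own level leaves nothing of it. The fitted zone differences at P2 therefore come from animals A, D and G, while C, E and F are shown as levels. For age differences within a zone the p-values rest on the spread between its few animals. Both share information across genes.

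Collagen chains enter the ER through the Sec61 translocon. Prolyl and lysyl hydroxylases modify the chains before the triple helix closes, and Hsp47, the product of Serpinh1, binds the folded helix and leaves it in the Golgi. General chaperones such as BiP (Hspa5), Grp94 (Hsp90b1), calreticulin (Calr) and calnexin (Canx) hold other folding proteins, and KDEL receptors return escaped chaperones from the Golgi. The unfolded protein response raises many of these genes when folding falls behind. Procollagen is too long for an ordinary COPII vesicle, and TANGO1 (Mia3) helps to load it. Proliferative chondrocytes are known for their heavy output of type II collagen, and hypertrophic chondrocytes for type X collagen.

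Some sums stood apart. The proliferative sum of P28 animal D joined 2 libraries; replicate 9 held 267 Xist counts and no counts of 4 Y-linked genes, while replicate 8 held no Xist and 4 Y-linked counts, so the main P28 proliferative results are also given without replicate 9. The hypertrophic sum of P2 animal C held 20032 counts outside Rn45s, Lars2 and Glra2, symbols that collect ribosomal or repeat reads. Rn45s alone took 8.51% to 81% of the counts of a sum. The resting sum of P2 animal G held 128 Xist and 747 Y-linked counts. The resting sum of P28 animal A held Col10a1, the hypertrophic collagen, at 8160 CPM, against 10.1 and 27.2 CPM in animals B and D. The 8 chondrocyte markers summed to 13600 to 219000 CPM in every group. The 11 prehypertrophic and hypertrophic markers summed to 9850 to 113000 CPM in hypertrophic sums and to 264 to 9140 CPM in resting sums. Endothelial markers reached at most 68.4 CPM, osteoclast markers 40.5 CPM and blood and immune markers 222 CPM, with Tyrobp at 0 in 5 of 6 groups. Erythroid markers reached 721 CPM in P2 hypertrophic and 696 CPM in P28 resting sums, with Hbb-b1, Hbb-b2, Hba-a1 and Hba-a2 at 0 in every group. Skeletal muscle markers reached 360 CPM. The part of these features in the results below was not tested. In captured tissue, fewer cells of a type and less RNA per cell cannot be told apart.

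The ER stress response element is a promoter sequence known as a target of the unfolded protein response, and the sites that match it are shown because 6 members share it. RefSeq promoter windows (build GRCm38.p6, 250 bases before to 50 after the start) were found for 33 of the 40 genes. It was searched on both strands of the 250 upstream bases as CCAAT, 9 bases of any letter and CCACG. It stood in the windows of 6 of the 33 genes (18.2%), against 37 of 32851 windows of all genes (0.113%), the members' windows included. The list was drawn up to hold ER chaperones and unfolded protein response genes, and the element is known from that response. The higher share could follow from this choice of list and motif and is not taken as a result about the members. Capitals mark the ends of the element, and on the opposite strand they read CGTGG and ATTGG.
Calr, chr8:84847060-84847108, minus strand: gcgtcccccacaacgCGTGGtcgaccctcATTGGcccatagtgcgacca
Canx, chr11:50325785-50325833, minus strand: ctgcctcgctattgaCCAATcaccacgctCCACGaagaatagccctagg
Dnajc3, chr14:118937812-118937860, plus strand: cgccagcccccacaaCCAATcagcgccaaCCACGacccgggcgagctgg
Hsp90b1, chr10:86705623-86705671, minus strand: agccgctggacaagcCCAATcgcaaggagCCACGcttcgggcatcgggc
Hsp90b1, chr10:86705518-86705566, minus strand: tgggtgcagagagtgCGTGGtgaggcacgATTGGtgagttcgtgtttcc
Hspa5, chr2:34772010-34772058, plus strand: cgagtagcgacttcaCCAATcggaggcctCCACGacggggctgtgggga
Pdia6, chr12:17266476-17266524, plus strand: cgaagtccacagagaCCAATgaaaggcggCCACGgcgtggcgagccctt

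Hsp90b1 held 2 such sites, 1 on each strand. Calreticulin, calnexin, Grp94, BiP, the disulfide isomerase Pdia6 and the BiP cochaperone Dnajc3 made up the set, all general chaperones, folding enzymes or their helpers. Its parts, which overlap the joint element where that occurs, were common everywhere: CCAAT stood in 19 of 33 members (57.6%) and in 33.8% of all windows, and CCACG in 20 of 33 (60.6%) and in 28.3%. ACGTG, which overlaps the motifs that hold CACG, stood in 17 of 33 (51.5%) and 16.6%. TATAAA stood in 3 of 33 (9.09%) and 12.4%. Among windows of the genes tested between zones these shares were 35.1% for CCAAT, 43.5% for CCACG, 23% for ACGTG, 6.1% for TATAAA and 0.133% for the joint element.

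The longer motif TGACGTGG, known as a binding sequence of Atf6 and Xbp1, stood in 2 members, the KDEL receptor gene Kdelr3 and the COPII cargo adaptor gene Sec24d (6.06%, against 0.563% of all windows and 0.872% of those of tested genes). Capitals mark it, on the minus strand of the gene in Kdelr3.
Kdelr3, chr15:79516358-79516405, plus strand: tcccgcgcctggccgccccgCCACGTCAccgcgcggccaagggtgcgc
Sec24d, chr3:123267450-123267495, plus strand: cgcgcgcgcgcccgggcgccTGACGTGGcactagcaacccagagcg

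Serpinh1, the 1 member called between zones at P28, had no joint element and no CCAAT in its window. Its upstream bases held CCACGT, shown in capitals, at 172 to 167 bases before the start, which contains CCACG and, on the other strand, ACGTG. A heat shock element of 3 units (GAA, 2 bases, TTC, 2 bases, GAA) stood in none of the 33 windows and in 0.384% of those of tested genes. A match describes letters only.
Serpinh1, chr7:99353240-99353489, minus strand: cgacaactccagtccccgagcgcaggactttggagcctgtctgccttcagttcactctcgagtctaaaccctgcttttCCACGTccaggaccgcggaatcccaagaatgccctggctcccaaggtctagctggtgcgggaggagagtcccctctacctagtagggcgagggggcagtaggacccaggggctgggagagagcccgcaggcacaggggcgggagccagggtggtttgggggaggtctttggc

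Compared per kilobase of exon, the list spanned a range from 435 CPM per kb for Serpinh1 to 0.123 CPM per kb for Ern1, the sensor that splices Xbp1 mRNA. Serpinh1 was followed by P4hb, the shared beta subunit of prolyl 4-hydroxylase and a disulfide isomerase (322 CPM per kb), Calr (216), the telopeptide lysyl hydroxylase Plod2 (183), Kdelr2 (174), Hspa5 (157) and Hsp90b1 (143). The alpha subunits of prolyl 4-hydroxylase stood in the order P4ha2 (78.4), P4ha1 (72) and P4ha3 (19.4 CPM per kb). Of the unfolded protein response, Creb3l2 (5.35 CPM per kb), Creb3l1 (3.51), Atf6 (2.17) and Ern1 ranked 35, 37, 39 and 40 of 40, while Xbp1 (35.3) and Herpud1 (27.7) ranked 22 and 25. Ppib, which codes for the prolyl isomerase cyclophilin B and forms a complex with Crtap, stood at 7.54 CPM per kb and was counted in 12 of 21 sums. Its partner Crtap stood at 42.4 CPM per kb.

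**Figure D1:**
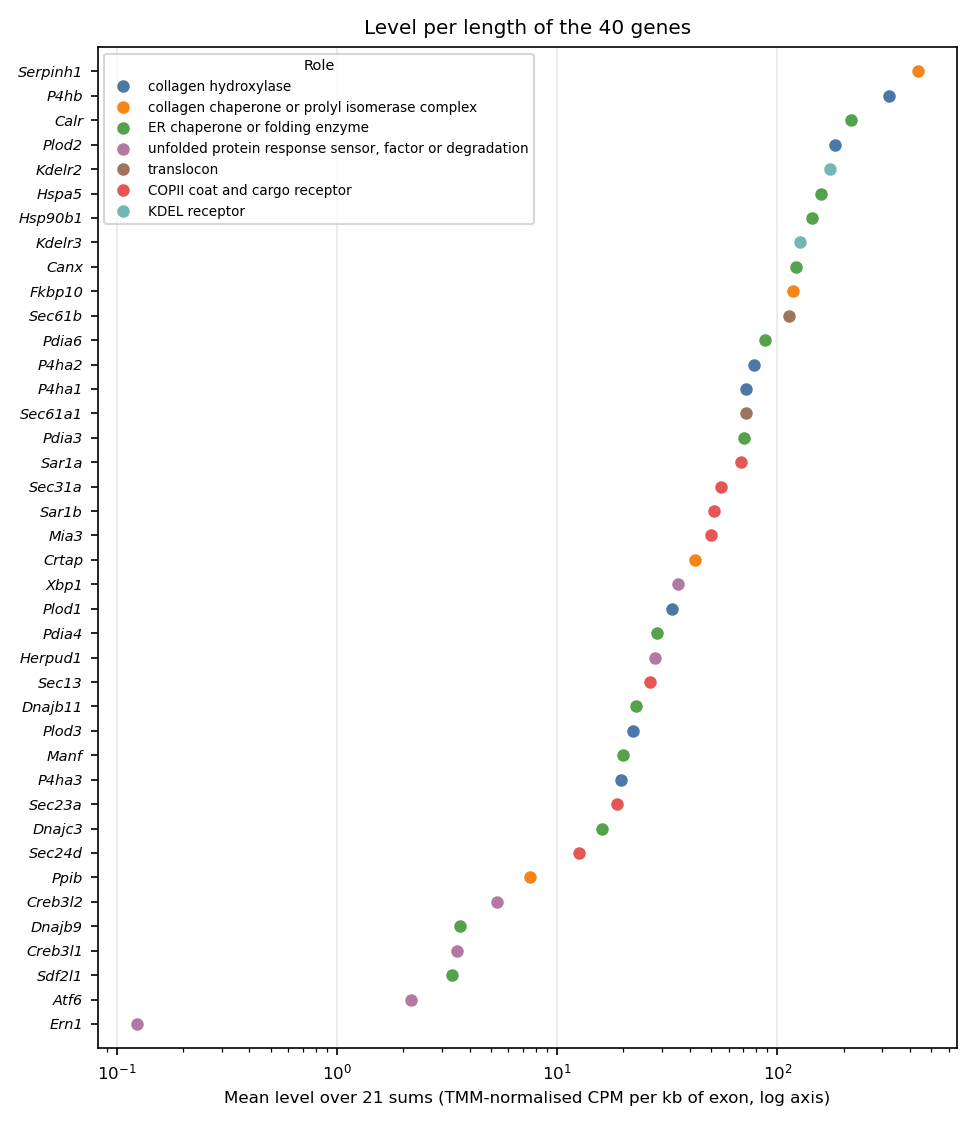
Mean level of each of the 40 genes over the 21 ethanol sums, in TMM-normalised CPM per kilobase of exon on a log axis, coloured by role. Serpinh1 stood highest at 435 and Ern1 lowest at 0.123 CPM per kb.

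The first question was where along the P28 growth plate these genes were highest. The proliferative zone held the most of their RNA: the 40 genes summed to 17400 ± 6820 CPM there (SD, n = 3), to 5870 ± 385 CPM in the resting zone and to 6330 ± 3340 CPM in the hypertrophic zone. By animal the proliferative sums were 13729.9 CPM in A, 13266.4 CPM in B and 25301.1 CPM in D. The resting sums were 5471.1, 5909 and 6238.7 CPM and the hypertrophic sums 3245.1, 5874.3 and 9882.7 CPM in A, B and D. No resting or hypertrophic sum reached the lowest proliferative one. Without replicate 9, on the scale of that fit, the proliferative sums were 13970.9, 13310.1 and 20429.1 CPM and the highest other sum 10066.3 CPM. At P2 the zones overlapped, with 7450 ± 2300 CPM in resting, 8630 ± 2920 CPM in proliferative and 4730 ± 3510 CPM in hypertrophic sums (SD, n = 4 each). Within each of the 3 P2 animals with every zone the proliferative sum was the highest. Resting, proliferative and hypertrophic sums were 4226.8, 4862.9 and 4212.1 CPM in A, 8098.6, 11042.5 and 4789.3 CPM in D, and 7818.6, 10828.2 and 9246.3 CPM in G.

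**Figure D2:**
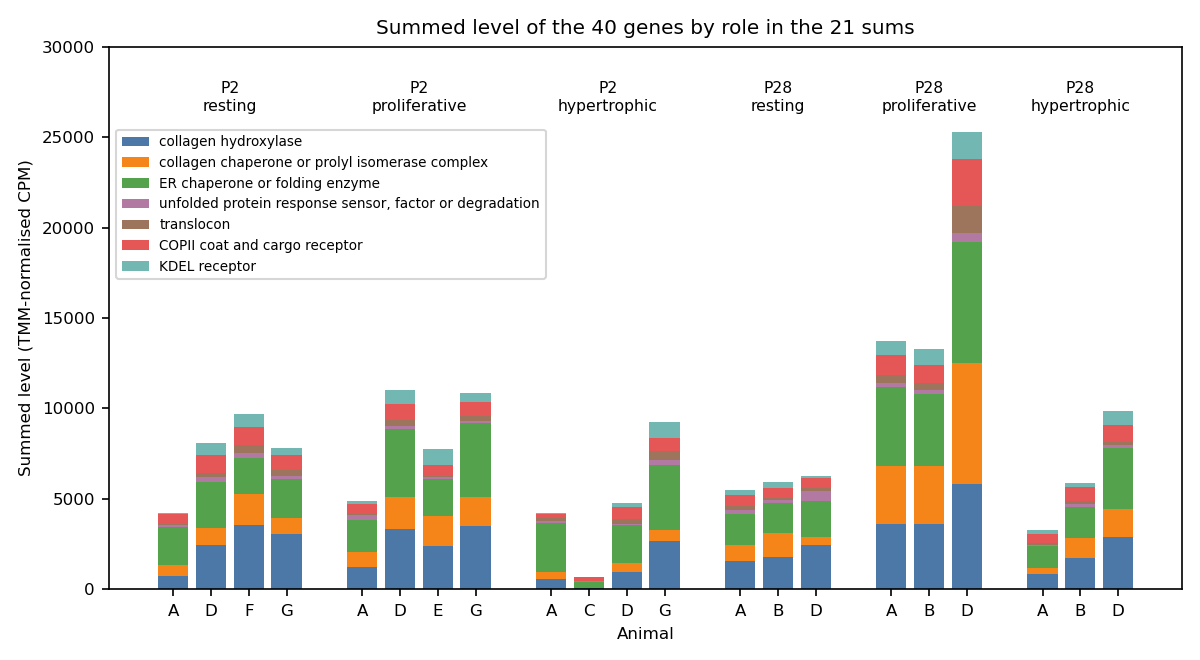
Summed level of the 40 genes (TMM-normalised CPM) in each of the 21 sums, 1 bar per animal within an age and zone, stacked by role. The 3 P28 proliferative bars, 13266.4 to 25301.1 CPM, stand above every other P28 bar.

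Serpinh1 carried the difference that passed the test. At P28 it stood at 2800, 2600 and 5340 CPM in the proliferative sums of A, B and D, and at 534, 1060 and 280 CPM in their resting sums. The groups did not overlap, and the resting sum was lower in 3 of 3 animals. Serpinh1 fell by 2.54 ± 0.65 on the log2 scale (SE) from the proliferative to the resting zone (adjusted p = 0.0236, edgeR's quasi-likelihood test with Benjamini-Hochberg adjustment over 6958 genes). Its hypertrophic sums were 241, 899 and 967 CPM, again below every proliferative sum. There it fell by 2.5 ± 0.64 (adjusted p = 0.0137). Serpinh1 was the only 1 of 37 members called in either comparison, where 0.561% and 1.12% of all tested genes were called. Resting and hypertrophic sums overlapped (log2 difference -0.04 ± 0.62).

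Both calls rest on few animals. Without replicate 9 of the proliferative libraries the differences were -2.25 (adjusted p = 0.244) and -2.11 (adjusted p = 0.189). Replicate 8 held Serpinh1 at 5120 and replicate 9 at 7200 CPM outside the 3 symbols, a scale on which Serpinh1 is not given for the other animals. Without replicate 9, on the scale of that fit, the proliferative sum of D read 2970 CPM, beside 2850 CPM in A and 2600 CPM in B. The highest resting sum was then 1080 CPM and the highest hypertrophic sum 985 CPM. The resting call was lost when any 1 of P28 animals A (adjusted p = 0.181), B (0.193) and D (0.415) or P2 animals A (0.0563) and D (0.176) was left out, and the hypertrophic call without P28 animal A (0.487) or B (0.183) or P2 animal D (0.0864). With no animal block the adjusted p was 0.271 and 0.305. Chondrocyte markers moved alongside: their sum was 132000 to 219000 CPM in P28 proliferative and 48800 to 72000 CPM in resting sums. Detected genes numbered 7164 to 11626 in the former and 4209 to 6844 in the latter.

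**Figure D3:**
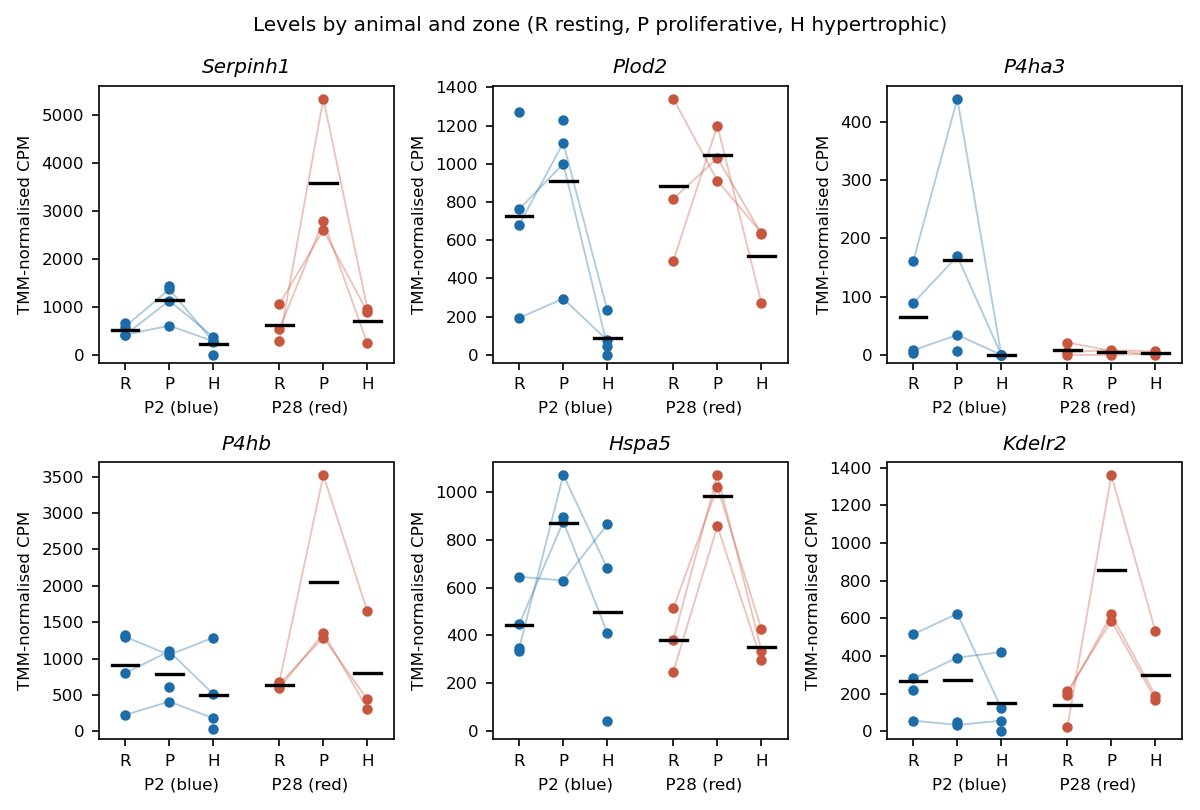
TMM-normalised CPM of 6 of the genes in each ethanol sum, with thin lines joining zones of 1 animal and black bars at group means. Serpinh1 is highest in the P28 proliferative zone (2600 to 5340 CPM), and P4ha3 is at 0 in every P2 hypertrophic sum.

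Most other members were lower outside the P28 proliferative zone without passing the test. From proliferative to resting, 34 of 37 log2 differences were below 0, with a median of -1.48 against -0.81 over all genes tested. The 3 above 0 were P4ha3, Dnajb9 and Atf6. From proliferative to hypertrophic, 36 of 37 were below 0, with a median of -1.48 against -0.52. At an unadjusted p under 0.05, 13 members were lower in the resting zone and none higher, where 10.5% of all genes passed in either direction and 8.64% passed as lower. In the hypertrophic zone 12 were lower and none higher, against 12.2% of all genes in either direction and 8.88% as lower. Under RLE scaling the median of all genes moved by 0.57 in the resting comparison and by 0.13 in the hypertrophic one. The members' median stood below that of all genes at a difference of -0.67 (TMM) and -0.63 (RLE) for resting and of -0.96 and -0.95 for hypertrophic. A change of scaling moves all genes by about the same amount. This gap could therefore hardly differ between the scales, and its likeness is no separate support. Without replicate 9 none of the 37 was called, 32 were below 0 in the resting comparison (median -1.3 against -0.5) and 34 in the hypertrophic one (-1.13 against -0.12). At an unadjusted p under 0.05, 8 and 7 members were then lower and none higher, against 6.49% and 6.29% of genes as lower.

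Among collagen hydroxylases at P28, P4hb read 1350, 1290 and 3520 CPM in the proliferative sums of A, B and D, 593, 649 and 680 CPM in resting and 313, 440 and 1650 CPM in hypertrophic sums. Resting sums lay below all proliferative sums, while the hypertrophic sum of D overlapped them (hypertrophic difference -1.52 ± 0.63, adjusted p = 0.291). The helical lysyl hydroxylase Plod1 read 202, 256 and 367 CPM in proliferative and 52.9, 35.5 and 15.5 CPM in resting sums (-2.90 ± 1.08, adjusted p = 0.261). Plod2 and P4ha3 overlapped between these zones. Plod2 read 1200, 1030 and 912 CPM in proliferative sums, within the range of 492, 817 and 1340 CPM in resting sums. P4ha3 read 7.05, 7.92 and 0 CPM in proliferative and 21.2, 5.07 and 0 CPM in resting sums. Without replicate 9 the difference was -1.13 for P4hb in the hypertrophic and -2.56 for Plod1 in the resting comparison.

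Among general chaperones, Calr read 726, 838 and 2140 CPM in proliferative and 228, 365 and 152 CPM in resting sums (-2.07 ± 0.75, adjusted p = 0.252). Hsp90b1 read 646, 621 and 529 CPM in proliferative and 96.4, 109 and 274 CPM in hypertrophic sums (-2.25 ± 0.78, adjusted p = 0.153). Neither pair of groups overlapped. The other comparison of each did: Hsp90b1 read 74.1, 172 and 688 CPM in resting sums, with D above every proliferative sum, and Calr read 185, 406 and 807 CPM in hypertrophic sums. Dnajb11, a BiP cochaperone, read 103, 66.7 and 648 CPM in proliferative and 24.1, 25 and 17.3 CPM in hypertrophic sums (-3.16 ± 1.33, adjusted p = 0.295). Hspa5 was even across the proliferative animals, at 1070, 856 and 1020 CPM, and lower in all resting sums, at 381, 249 and 513 CPM. Without replicate 9 the differences were -2.09 for Calr (resting), -2.12 for Hsp90b1 and -1.61 for Dnajb11 (hypertrophic).

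Transport genes were read in the same way. Sec61a1, the pore subunit of the translocon, read 280, 258 and 1450 CPM in proliferative and 72.3, 68.7 and 143 CPM in hypertrophic sums (-2.47 ± 0.89, adjusted p = 0.184). Sec23a, a COPII inner coat gene in which mutation is known to impair cartilage collagen export, read 183, 103 and 302 CPM in proliferative and 58.2, 10.1 and 11.7 CPM in resting sums (-3.19 ± 1.26, adjusted p = 0.312). Kdelr2 read 588, 621 and 1360 CPM in proliferative and 212, 193 and 23.3 CPM in resting sums (-2.38 ± 0.84, adjusted p = 0.227). None of these groups overlapped, and none of the differences passed the threshold. These genes, and the hydroxylases and chaperones given above with an adjusted p, were named for small p-values in the same comparisons. Lack of overlap in them is therefore no separate support, and the share of all genes without overlap is not given. The 2 libraries behind the value of D differed: Sec23a had 137 counts in replicate 8 and 3 in replicate 9 (1200 and 11.5 CPM outside the 3 symbols), and Kdelr2 stood at 401 and 2230 CPM. Without replicate 9 the differences were -2.31 for Sec61a1, -3.66 for Sec23a and -1.79 for Kdelr2, with D at 693 CPM for Sec23a and at 233 CPM for Kdelr2. By role, the median log2 difference from proliferative to resting ran from -1.01 for the unfolded protein response to -2.32 for the translocon, and from proliferative to hypertrophic from -0.86 for COPII to -2.18 for the unfolded protein response.

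Animal D gave the highest proliferative value for many of these genes, and its 2 libraries differed gene by gene. Sar1b, a COPII GTPase gene, had 231 counts in replicate 8 and 5 in replicate 9. Dnajb11 had 10 and 290 counts and Pdia4 8 and 224 counts in the same order. The 40 genes together made up 35300 and 29300 CPM outside the 3 symbols in replicates 8 and 9. As a share of those counts they made up 3.11% in the proliferative sum of D, 2.59% in A and 2.48% in B. On this measure D stood nearer to A and B than on the TMM scale.

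**Figure D4:**
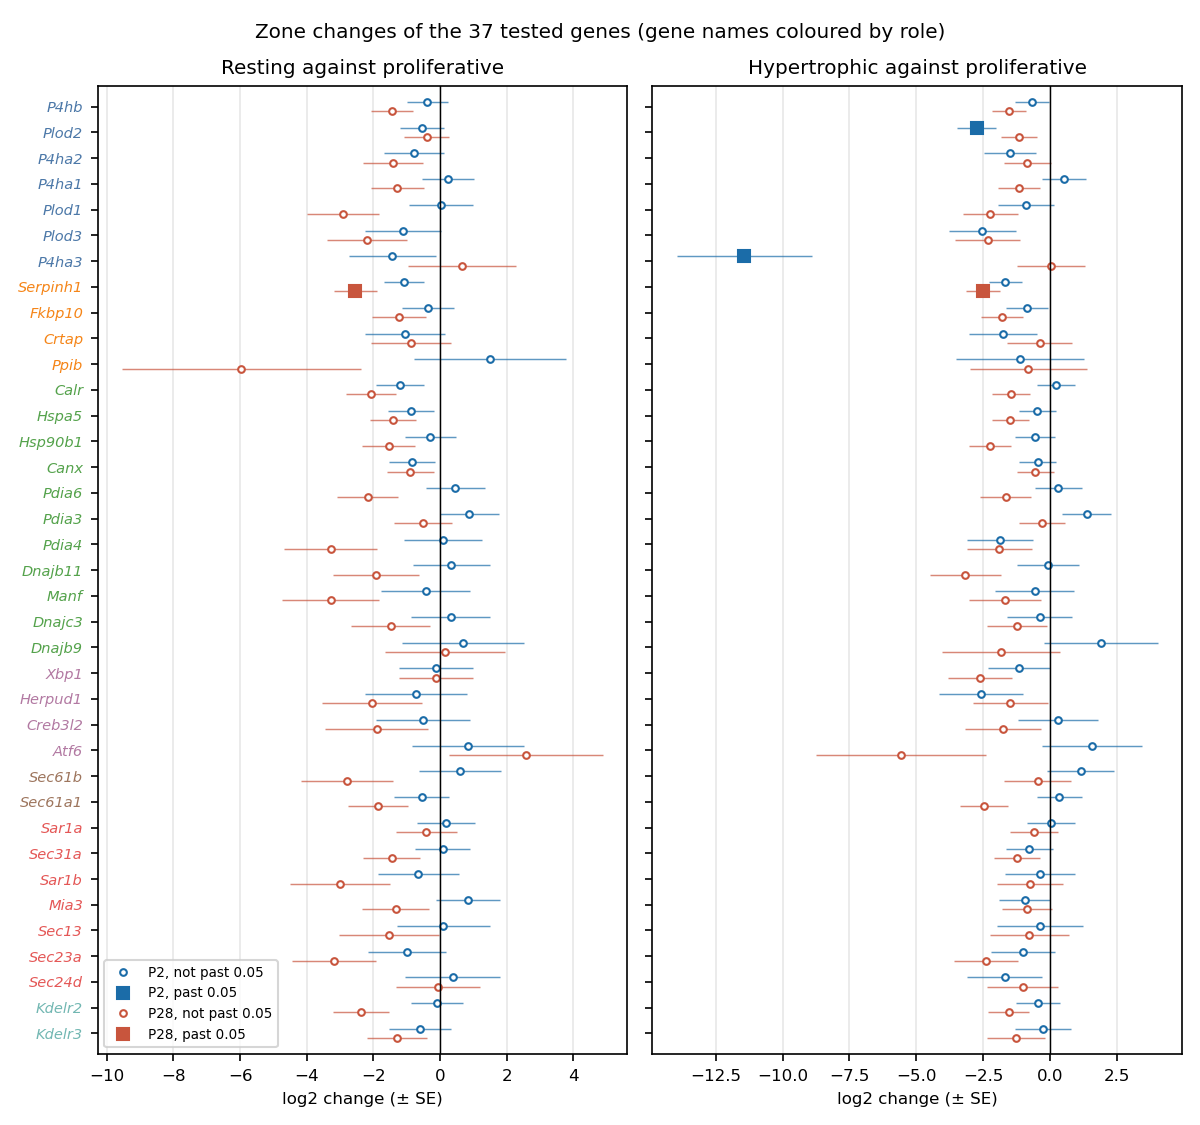
Fitted log2 differences with SE for the 37 tested genes, resting (left) and hypertrophic (right) against proliferative zone, P2 in blue and P28 in red; filled squares passed an adjusted p of 0.05. Most P28 points lie left of 0 (34 and 36 of 37). The fitted P4ha3 value at P2 is against a group at 0 and depends on the prior count.

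At P2 the zone pattern involved other members. P4ha3, the least abundant alpha subunit of prolyl 4-hydroxylase, read 8.2, 89, 3.16 and 161 CPM in the resting sums of A, D, F and G and 34.2, 169, 6.78 and 439 CPM in the proliferative sums of A, D, E and G. All 4 hypertrophic sums (A, C, D and G) had no count. Resting and proliferative sums overlapped, and both lay above the hypertrophic ones. P4ha3 had 1598 proliferative counts against 0 in the hypertrophic zone (adjusted p = 0.0011, edgeR's quasi-likelihood test). With the floor set at 3 counts over the hypertrophic group, it was 316-fold lower there. Against the resting zone, with 1007 counts, it was 96.8-fold lower on the same floor (adjusted p = 0.00422). Both folds pool the counts and leave out the spread between animals. These calls were lost without P2 animal D (adjusted p = 0.118 and 0.17) or G (0.458 and 0.506), which held the most counts.

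Plod2, whose enzyme hydroxylates the telopeptide lysines used in cross-links, read 294, 1000, 1230 and 1110 CPM in the proliferative sums of A, D, E and G and 75.9, 0, 44.3 and 233 CPM in the hypertrophic sums of A, C, D and G. The groups did not overlap, and each of 3 animals with both zones was lower in the hypertrophic one. In the fit, to which C and E add no zone difference, Plod2 fell by 2.74 ± 0.73 (adjusted p = 0.0143, edgeR's quasi-likelihood test). The call was lost without P2 animal A (adjusted p = 0.0624), D (0.41) or G (0.185). Its resting sums of 194, 763, 1270 and 682 CPM overlapped the hypertrophic ones, and the difference of 2.20 ± 0.72 did not pass (adjusted p = 0.0562).

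These 2 were the members called from proliferative to hypertrophic at P2, where 2.31% of genes were called, and P4ha3 was the 1 member called between resting and hypertrophic, where 3.77% were. Serpinh1 read 609, 1370, 1440 and 1130 CPM in proliferative sums and 285, 0, 278 and 376 CPM in hypertrophic sums. The order was that of P28, with no overlap, and the difference of -1.67 ± 0.62 did not pass (adjusted p = 0.14). Plod3, the third lysyl hydroxylase, read 171, 128, 190 and 64.2 CPM in proliferative and 9.49, 0, 17.2 and 40.1 CPM in hypertrophic sums (-2.53 ± 1.25, adjusted p = 0.324). Herpud1, a factor of ER-associated degradation, had a difference of -2.57 ± 1.57. The median of the 7 hydroxylases was -1.48 and that of the 4 collagen chaperone and isomerase genes -1.39, beside -0.38 for the ER chaperones, 0.75 for the translocon and -0.36 over all genes. At an unadjusted p under 0.05, 4 members were lower and none higher, against 14.2% of all genes in either direction and 9.61% as lower.

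Other features differed alongside in the P2 hypertrophic sums. Of the 8 proliferative markers, Mki67, Cenpf, Ccnb1 and Cdk1, genes of dividing cells, were at 0 in all 4. Top2a and Prc1, also genes of dividing cells, were not. The 8 together summed to 548 to 4670 CPM there, to 2280 to 5830 CPM in proliferative and to 1170 to 7560 CPM in resting sums. The 7 perichondrium and fibroblast markers summed to 72.1 to 333 CPM there, to 136 to 668 CPM in proliferative and to 705 to 4670 CPM in resting sums. The 9 osteoblast and osteocyte markers summed to 626 to 1770 CPM in resting and to 217 to 312 CPM in proliferative sums, with Bglap, Bglap2 and Sost at 0 in both. In hypertrophic sums they ranged from 108 to 1630 CPM, and Phex, an osteoblast and osteocyte gene, was higher there than in proliferative sums (7.29 on the log2 scale, adjusted p = 2.1e-04). The 6 erythroid markers summed to 14.8 to 721 CPM in hypertrophic, 0 to 23.3 CPM in proliferative and 0 to 28 CPM in resting sums. Of these, 4 (Hbb-b1, Hbb-b2, Hba-a1 and Hba-a2) had no count in any of the sums. Beta-s, a beta globin gene, was higher in hypertrophic than proliferative sums (4.47, edgeR adjusted p = 0.0308). Rn45s took 39.9% to 70.7% of counts in hypertrophic and 14.8% to 55.7% in proliferative sums. Their part in the differences was not tested.

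Between resting and proliferative zones at P2 no member was called, and 0.259% of all genes were. The median was -0.29 against 0.15 over all genes, with 16 members above 0 and 21 below. No member had an unadjusted p under 0.05, against 4.14% of genes. The smallest p-values belonged to Serpinh1 (-1.07 ± 0.60), Calr (-1.2 ± 0.72), Hspa5 (-0.88 ± 0.69), Canx (-0.85 ± 0.69) and P4ha3 (-1.43 ± 1.30). Serpinh1 read 421, 592, 667 and 420 CPM in resting sums, all but 1 below the lowest proliferative sum of 609 CPM. Hspa5 read 645, 447, 336 and 348 CPM in resting and 629, 875, 895 and 1070 CPM in proliferative sums, an overlap through animal A.

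Between resting and hypertrophic zones at P28 no member was called, against 1.77% of all genes, and 2 had an unadjusted p under 0.05 (13.7% of genes). Both belong to the unfolded protein response. Atf6 is an ER membrane factor cleaved in the Golgi. It read 63.5, 0 and 77.7 CPM in resting sums and 0 in all 3 hypertrophic sums (adjusted p = 0.149). Its 32 pooled counts against 0 were 14.1-fold higher with a floor of 3 counts, with a lower 95% Poisson limit of 10.8. That limit leaves out the spread between animals, and animal B had no count in either zone. Xbp1 ranged from 35.5 CPM (B) to 478 CPM (D) in resting sums and read 0, 21.8 and 81.4 CPM in hypertrophic sums (2.49 ± 1.2, adjusted p = 0.318). Its groups overlapped and animal D was the highest in both. The members' median was -0.21 against -0.27 over all genes under TMM and 0.25 against 0.12 under RLE, so its sign depended on the scaling. At P2 the median between these zones was 0.36 against 0.52, and 2 members (P4ha3 and Plod2) had an unadjusted p under 0.05, against 16.6% of genes.

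Whether the zone differences changed with age was tested directly. No member passed for the resting against proliferative difference (0.144% of genes called), the hypertrophic against proliferative difference (0% called) or the resting against hypertrophic difference (0.273% called). For Serpinh1 the difference between ages was -1.47 ± 0.87 (adjusted p = 0.779) in the first and -0.84 ± 0.86 (adjusted p = 0.958) in the second. For Plod2 it was 1.58 ± 0.97 (adjusted p = 0.864) in the second. P4ha3, which had 10 counts in P28 proliferative sums against 1598 at P2, gave an adjusted p of 0.187 there. At an unadjusted p under 0.05, 3 members passed in the first (6.78% of genes), 2 in the second (5.94%) and 2 in the third (9.86%). Without replicate 9 these counts were 0, 3 and 2, and no member was called. The 3 of the first were Pdia6 (-2.63 ± 1.26), Plod1 (-2.93 ± 1.45) and Kdelr2 (-2.29 ± 1.14).

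Ages were then compared within each zone, in fits that held the 2 sets of deposited libraries apart. In the proliferative zone 32 of 34 tested members were higher at P28, with a median log2 difference of 0.95 against 0.04 over all genes. The median stood 0.91 above that of all genes under both scalings, which is no separate support, since scaling moves all genes alike. None of the members passed the test, which called 0.679% of genes. At an unadjusted p under 0.05, 3 members were higher and 1 lower (5.62% of genes). Serpinh1 was higher at P28 by 1.43 ± 0.49 (adjusted p = 0.243), Calr by 1.53 ± 0.62 (adjusted p = 0.544) and Kdelr2 by 1.47 ± 0.68. P4ha3 was the 1 lower, at 7.05, 7.92 and 0 CPM against 6.78 to 439 CPM at P2 (-4.44 ± 1.40, adjusted p = 0.138), and the pooled ratio was 0.0159. P2 and P28 Serpinh1 sums did not overlap. Without replicate 9, 28 of 34 were above 0 (median 0.78 against -0.17), and Serpinh1 differed by 1.21, Calr by 1.63 and Kdelr2 by 0.83. Marker levels differed alongside. Prehypertrophic and hypertrophic markers summed to 3850 to 7540 CPM in P28 and 814 to 1440 CPM in P2 proliferative sums, with Col10a1 at 3390, 2720 and 127 CPM in P28 animals A, B and D and 0 to 20.3 CPM at P2. Chondrocyte markers summed to 132000 to 219000 CPM at P28 and 29700 to 79200 CPM at P2. Their part in the age differences was not tested.

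In the resting zone 11 of 33 tested members were above 0 and 22 below, with a median of -0.33 against -0.53, and none was called (0.872% of genes) or had an unadjusted p under 0.05 (10.1%). In the hypertrophic zone 17 of 25 were above 0, with a median of 0.39 against 0.09, and none was called (0.102%). Plod2 alone had an unadjusted p under 0.05 there (5.25% of genes), with 273, 634 and 639 CPM at P28 above 0 to 233 CPM at P2 (2.81 ± 0.94, adjusted p = 0.458). The zones were fitted apart, so their age differences were not compared by a test.

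A further 135 genes of the same pathways, from other collagen modifiers to COPI, were read for comparison, and 113 could be tested. From proliferative to resting at P28, 10 were above and 103 below 0, with a median of -1.68. None was called, where 0.561% of all tested genes were. The medians of all genes in these comparisons are given with the members above. From proliferative to hypertrophic at P28, 20 were above and 93 below 0, with a median of -0.96. Srprb, a subunit of the signal recognition particle receptor, was the 1 called (-5.97 ± 1.53 on the log2 scale), where 1.12% of all tested genes were. At P2, 2 were called from proliferative to hypertrophic, both lower, where 2.31% of all tested genes were called. They were Fkbp14, a collagen prolyl isomerase gene, with 420 counts against 4, and Sec16b, which helps to form ER exit sites. Sec16b was 213-fold lower with a floor of 3 pooled counts. Between resting and hypertrophic zones at P2, 3 were called as higher, where 3.77% of all tested genes were called. They were Leprel2, a prolyl 3-hydroxylase gene, by 5.36 ± 1.66, Fkbp14 by 5.2, and Sec16b, 46.7-fold on the same floor. In the proliferative zone 79 of 106 tested were higher at P28 and none was called, where 0.679% of all tested genes were.

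The procollagen chains, the cargo of this pathway, were read beside it. Of 17 tested procollagen chain genes, the type XI chain Col11a1 fell by 1.70 ± 0.42 from proliferative to resting at P28 (adjusted p = 0.0226), alongside Serpinh1. Col12a1 fell by 3.51 ± 0.92 from proliferative to hypertrophic at P28 (adjusted p = 0.0187). At P2 Col3a1 was higher in resting than proliferative sums, by 5.27 ± 1.32 (adjusted p = 0.032). Between resting and hypertrophic zones, Col10a1, Col5a2, Col6a2 and Col6a3 were called as higher in hypertrophic and Col1a2 in resting sums at P2, and Col5a2 as higher in hypertrophic sums at P28. Against the proliferative zone, the shares of all tested genes called were 0.561% (resting, P28), 1.12% (hypertrophic, P28) and 0.259% (resting, P2). Between resting and hypertrophic zones they were 3.77% at P2 and 1.77% at P28. In the proliferative zone all 16 tested chains had higher levels at P28 than at P2. The share of all genes higher at P28 is not given. Of the 16, 4 passed, where 0.679% of all tested genes were called. Col2a1, the main cartilage collagen, rose by 1.62 ± 0.26 (edgeR adjusted p = 2.29e-07), Col11a1 by 1.17 ± 0.33, Col12a1 by 3.35 and Col10a1 by 7.37. From proliferative to hypertrophic at P2, Col10a1 and Col5a2 rose (13.41 and 6.11 on the log2 scale) while the hydroxylases Plod2 and P4ha3 fell. There 2.31% of all tested genes were called.

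The zone differences of the 6 genes with the joint ER stress response element are set beside those of the other tested members. From proliferative to resting at P28 their median was -1.51, with 6 of 6 below 0, beside -1.45 in the other 31. From proliferative to hypertrophic it was -1.48 in both sets. At P2 the medians were -0.57 and -0.12 from proliferative to resting, and -0.42 and -0.77 from proliferative to hypertrophic.

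DESeq2 on the same sums called more genes overall. At P2 it called no member from proliferative to resting (0.474% of genes), P4ha3, Plod2 and Serpinh1 from proliferative to hypertrophic (5.3%; Serpinh1 -1.75, adjusted p = 0.0314), and P4ha3 and Plod2 between resting and hypertrophic (6.78%). At P28 it called Serpinh1 in the resting comparison (1.84%), Serpinh1 and Sec61a1 in the hypertrophic comparison (3.09%; Sec61a1 -2.34, adjusted p = 0.024), and Xbp1 between resting and hypertrophic (4.94%; 3.12, adjusted p = 0.0374). Of the differences between ages it called none for resting against proliferative (0.632%), P4ha3 for hypertrophic against proliferative (1.06%; adjusted p = 0.013), and none for resting against hypertrophic (2.03%). Between ages it called none in the resting zone (3.57%), P4ha3 as lower at P28 in the proliferative zone (1.37%; -4.56, adjusted p = 0.0339), and Plod2 as higher in the hypertrophic zone (1.87%; 2.77, adjusted p = 0.0495).

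Xylene-fixed P28 sections came from animals D and E and held deeper libraries. Of 39 tested members, 33 were below 0 from proliferative to resting, with a median of -1.13 against -0.06 over all genes. None was called by edgeR in the resting (0.14% of genes), hypertrophic (0.14%) or resting against hypertrophic (0.448%) comparison. At an unadjusted p under 0.05, 4 were lower and 1 higher in the resting zone (4.12%), none passed in the hypertrophic zone (3.93%), and 1 passed between resting and hypertrophic (6.57%). The 4 lower were P4ha1 (-2.31 ± 0.96), Hspa5 (-2.03 ± 0.84), Hsp90b1 (-1.83 ± 0.86) and Sec61b (-3.14 ± 1.39). DESeq2 called Hspa5 as lower in the resting zone (0.429% of genes; -1.78, adjusted p = 0.0478), none in the hypertrophic zone (0.724%), and P4ha3 as higher in resting than hypertrophic sums (1.96%; 6.13, adjusted p = 0.0338).

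On the scale of that fit, Serpinh1 read 1300 and 1090 CPM in resting, 2490 and 2720 CPM in proliferative and 1730 and 1650 CPM in hypertrophic xylene sums of D and E. Proliferative sums were again the highest in both animals, and the difference to resting was -1.13 ± 0.72. In ethanol the same scale gave 2970, 2740 and 5670 CPM in proliferative sums. P4ha3 read 83.6 and 131 CPM in resting, 30.9 and 0 CPM in proliferative and 18.5 and 1.09 CPM in hypertrophic xylene sums, highest in resting (5.26 ± 1.99 against proliferative, adjusted p = 1). The 40 genes summed to 9195.2 and 7142.2 CPM in resting, 18426.9 and 15696.9 CPM in proliferative and 13092.8 and 12364 CPM in hypertrophic xylene sums. Nearly all hypertrophic counts of P4ha3 (140 of 142) lay in replicate 3 of animal D. That library is labelled hypertrophic and held Col10a1 at 41.8 CPM outside the 3 symbols, against 16700 to 93100 CPM in the other 4. Without it P4ha3 was higher in resting than hypertrophic sums (7.6, edgeR adjusted p = 0.0194). This alternative was added after seeing the data. The hypertrophic values of D given here for Serpinh1 and the 40 genes include that library. Fixations were compared by level only, since D alone had both. Hypertrophic against proliferative the members' median was -0.20 in xylene, where 14 of 39 were above 0. This median includes hypertrophic replicate 3 of D. The proliferative libraries of E held Col10a1 at 2410 and 8920 CPM outside the 3 symbols, against 5.83 to 70 CPM in those of D.

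**Figure D5:**
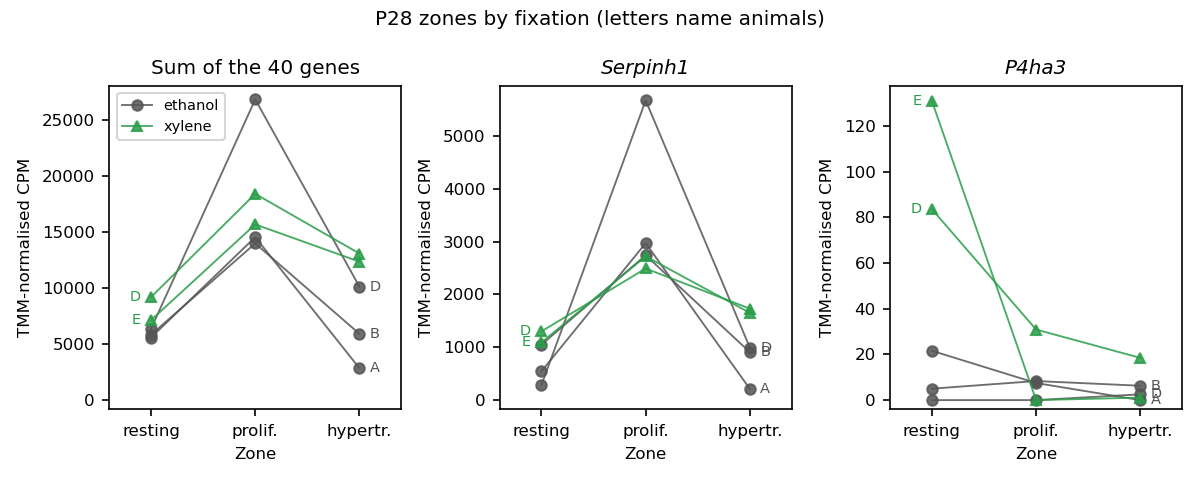
P28 levels by zone (TMM-normalised CPM) in ethanol (grey circles, animals A, B, D) and xylene (green triangles, animals D, E) for the sum of the 40 genes, Serpinh1 and P4ha3. The proliferative zone is the highest for the sum and for Serpinh1 in each of the 5 series, from 13996.7 to 26861.7 CPM in the ethanol sums.

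The P3 animal, with 1 library for each zone, has no replicate, and its proliferative library held 355 Xist and 311 Y-linked counts while the other 2 held no Xist. Its resting, proliferative and hypertrophic libraries held Serpinh1 at 683, 980 and 537 CPM and Plod2 at 559, 1150 and 225 CPM, with the proliferative zone highest for both. P4ha3 read 425, 84.6 and 0 CPM in the same order, so it was listed at 0 in the hypertrophic library, as in every P2 hypertrophic sum, and its highest level was in the resting zone.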

How the data were processed

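The authors deposited 1 table of read counts per gene symbol. Tools named in the submitters' processing notes are featureCounts 1.5.3, Subread, STAR 2.5.2b and cutadapt, and the build named there is mm10; the strand setting is not given in the sources used here. The labels describe laser capture and SMART-seq2. Members and lists were chosen with earlier results of these data known. Of 100 columns, 32 pairs that share a title were summed after a check (median chi-square per gene 0.996, from 0.435 to 1.559), giving 68 libraries. Libraries under 100000 counts were left out and the rest summed by animal and zone.

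Counts were fitted in R 4.3.3 with edgeR 4.0.16 (TMM, filterByExpr by group, robust quasi-likelihood F-test, Benjamini-Hochberg over all genes tested, threshold 0.05). The zone fit had 21 sums, a block for the animal and zone within age (6958 genes, 8 residual degrees of freedom, biological coefficient of variation 0.973). Zones of 1 animal share it per the labels; deviations of its zones from group means correlated from -0.00214 to 0.185. Age fits took 7 sums per zone with a term for the deposit set (3327, 4712 and 1963 genes). The xylene fit held 27 sums of 10 animals (10717 genes). SE is the log2 difference over the root of F. DESeq2 1.42.0, RLE scaling, no filter, no block, another depth minimum and leaving out each animal were alternatives. The zone fit was run on simulated counts with the same spread for every gene and no difference between animals. That setting is simpler than these data, so the run says little about the results here. Named genes are the called members and, where fewer than 5, those of smallest p up to 5, plus called related genes, at most 6 per comparison; fewer are printed. Exon lengths and gene identifiers are from GENCODE vM21, promoters from RefSeq. Depth limits precision: over all libraries the members held from 91 (Ern1) to 63065 counts (Serpinh1).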

Additional observations from a re-analysis of the deposited data

Results flagged for a closer look

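In 7 of 81 groups of 4 sums, 1 animal stood far from the other 3 by Dixon's criterion at 95%, which chance meets in about 1 group in 20. In P2 proliferative sums, animal D was highest for Dnajb11 (73.7 CPM, next 27.4), Ppib (25.9, next 2.15) and Pdia3 (324, next 56.2). Animal E was highest there for Kdelr3 (854 CPM, next 189). In P2 hypertrophic sums, animal G was highest for Atf6 (71.7 CPM, next 9.85) and Sdf2l1 (6.21, with the other 3 at 0). In P2 resting sums, animal F was highest for Mia3 (269 CPM, next 167). None of these genes was called in a comparison of P2 zones.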

How the results depend on the processing

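Counts of members called moved as follows, and the cause was not tested beyond the smaller number of sums. Resting against proliferative at P28, the count of 1 (Serpinh1) became 0 under RLE scaling (-2, adjusted p = 0.208), no filter on low counts (-2.61, 0.065), no replicate block (-2.52, 0.271), a minimum of 30000 counts outside the 3 symbols (-2.38, 0.109) and without P28 proliferative replicate 9 (added after seeing the data); leaving out 1 animal gave 0 to 1. Hypertrophic against proliferative at P28, the count of 1 became 2 with DESeq2, 2 with the label suffix as animal (Hsp90b1 joined), and 0 with no replicate block, with the 30000 minimum and without replicate 9; leaving out 1 animal gave 0 to 1. Hypertrophic against proliferative at P2, the count of 2 ran from 0 (without P2 D or G) to 3 (without P28 D). Resting against hypertrophic at P2, the count of 1 became 2 under RLE scaling, DESeq2 and no replicate block (Plod2 joined), and 0 to 2 with an animal left out. Counts of 0 became 1 with DESeq2 for resting against hypertrophic at P28, the age difference of hypertrophic against proliferative, age in the proliferative and the hypertrophic zone, and the xylene resting against proliferative and resting against hypertrophic comparisons. Age in the proliferative zone gave 1 without the deposit set term (P4ha3 -4.95, adjusted p = 0.0418), and xylene resting against hypertrophic gave 1 without hypertrophic replicate 3 (P4ha3, adjusted p = 0.0194). The replicate block changed no other call. Leaving out 2 shallow hypertrophic libraries changed no call. Of the values of single members under alternatives, 1225 kept their side of the threshold, 16 moved past it, 23 lost it and 1 turned sign: Pdia4 between ages in the resting zone, 0.07 with the 30000 minimum against -2.23.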
